A study of Mus musculus with 4 samples.

Results

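Peaks of Flag-tagged Sp5 were examined at the loci of Sp5 itself and of its relative Sp8 in differentiating mouse embryonic stem cells. The members are the peaks whose midpoint lies within 110 kb windows drawn around each gene on the mm9 build, from 70260001 to 70370000 on chromosome 2 for Sp5 and from 120030001 to 120140000 on chromosome 12 for Sp8. These windows held 5 of the 9428 peaks in the deposited list, 3 at the Sp5 locus and 2 at the Sp8 locus. The peaks came from chromatin immunoprecipitation and sequencing (ChIP-seq) of A2Lox.cre embryonic stem cells, an engineered line that takes a chosen cDNA under doxycycline control. The cells were cultured as embryoid bodies, received doxycycline from day 2 for 24 h to switch on Flag-Sp5, and were fixed on day 3. There were 2 libraries of chromatin precipitated with the M2 antibody against the Flag tag and 2 input libraries made without antibody, and doxycycline is given as the treatment of all 4. The peaks therefore concern the induced, tagged protein in a single line, endogenous Sp5 protein was not assayed, and signal of the antibody in cells without Flag-Sp5 cannot be told apart from it. The titles of the precipitated libraries name Flag-Sp5, while those of the inputs read Flag ESC. Whether the input cells carried Flag-Sp5 is not stated in these titles.

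Sp5 and Sp8 are zinc-finger transcription factors of the SP/KLF family, whose members bind GC-rich elements such as the GC box and the CACCC box. Wnt/β-catenin signalling, which switches Sp5 on, works through a complex in which β-catenin joins TCF/LEF factors on DNA. Sp5 and Sp8 have overlapping functions downstream of Wnt in the primitive streak and in the progenitors that build the posterior body axis. A transcription factor that binds at its own gene, or at the gene of a close relative, can act back on its own production. The question put to the list here is whether called Flag-Sp5 peaks lie at these genes, and how their number, width and spacing compare with those elsewhere on the same chromosomes. Expression of Sp5 and Sp8 was not measured in the data used here, so the peaks show called positions and no effect on either gene.

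The DNA just upstream of each gene is shown because the windows were drawn around these genes. Both stretches are RefSeq reference sequence on the GRCm38.p6 build, plus strand, 5′ to 3′. That build differs from the mm9 build of the peaks, so the positions of the stretches and of the peaks must not be subtracted from each other. Whether a peak covers either stretch was not determined. The Sp5 stretch, at chr2:70474673-70474922, holds the 250 bases before the annotated start. The Sp8 stretch, at chr12:118846079-118846287, holds the 209 bases of the corresponding interval that lie outside the annotated gene. Capitals mark matches to the 4 motifs described next.
Sp5: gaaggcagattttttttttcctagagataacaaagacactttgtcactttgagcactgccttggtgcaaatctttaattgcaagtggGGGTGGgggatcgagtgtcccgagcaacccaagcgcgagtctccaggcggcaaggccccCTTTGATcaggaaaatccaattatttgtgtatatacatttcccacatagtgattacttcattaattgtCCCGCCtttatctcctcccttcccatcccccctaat
Sp8: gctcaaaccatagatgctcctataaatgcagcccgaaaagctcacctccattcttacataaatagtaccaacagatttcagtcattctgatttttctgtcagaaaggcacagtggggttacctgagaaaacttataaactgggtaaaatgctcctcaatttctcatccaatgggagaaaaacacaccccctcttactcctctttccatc

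The motifs searched on both strands were GGGCGG and GGCGGG, which overlap within the full GC box, GGGTGG for the CACCC box, and CTTTGAT for TCF/LEF factors. The 250 bases before the Sp5 start held GGCGGG 1 time on the minus strand, 36 to 31 bases before the start, where the printed strand reads CCCGCC. They held GGGTGG 1 time on the plus strand, 163 to 158 bases before the start. CTTTGAT occurred 1 time on the plus strand, 104 to 98 bases before the start. Such motifs are short and common. Among all 32851 RefSeq windows of 250 bases before a start, GGCGGG was found in 32.5%, GGGCGG in 32.7%, GGGTGG in 28.1% and CTTTGAT in 3.21%. Of these windows, 10.4% held 3 or more of the 4 kinds, as the Sp5 window did. A full GC box gives both GGGCGG and GGCGGG, so a window can reach 3 kinds without CTTTGAT. The share with the same kinds as Sp5 was not counted and cannot exceed the 3.21% for CTTTGAT. The motifs were chosen with the Sp5 and Sp8 sequences seen, so these shares are a description and no test of rarity.

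Sp8 has 3 annotated starts in the same table. The 250 bases before the first held none of the 4 motifs, as did 45.4% of all windows. Those before the second start held GGGCGG 1 time and GGCGGG 1 time, and those before the third held GGGTGG 1 time. CTTTGAT was found before none of the 3 Sp8 starts. The share of G and C was 46.0% before the Sp5 start and 40.8%, 67.2% and 50.0% before the Sp8 starts in their order along the chromosome, against a median of 52.4% over all windows and a central range of 45.2 to 61.2%. The windows at both ends of this set were thus the first and the second start of Sp8, in the AT-rich and the GC-rich direction. A match here is a string of letters and not a bound site.

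The Sp5 locus held a compact group of peaks close to the middle of its window and no other peak. The first peak ran from 70309884 to 70310366 and was 483 bp wide. The second ran from 70312820 to 70313096 and was 277 bp wide, and the third ran from 70313873 to 70314148 and was 276 bp wide. Their midpoints lay 4.88, 2.04 and 0.990 kb before the window centre, all on the side of lower coordinates. From the outer edge of the first to that of the third they spanned 4.26 kb, which is 3.88% of the window. The latter pair were nearly equal in width and stood 0.776 kb apart between their edges, whereas 2.45 kb lay between the edges of the first and the second. The wide peak was thus set apart from a close pair. The gap within the pair was longer than the sheared fragments, which the labels put at 100 to 300 bp.

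**Figure D1:**
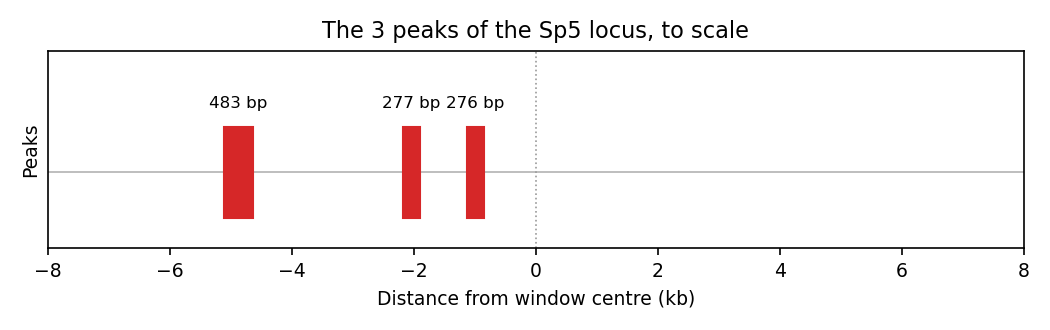
Red boxes are the 3 called peaks of the Sp5 locus drawn to scale along the distance from the window centre in kb, with their widths printed above; the height of the boxes has no meaning. The 483 bp peak stands 2.45 kb from a pair of 277 and 276 bp, and all midpoints lie less than 5 kb before the window centre (dotted line).

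The Sp8 locus had a different layout. Its first peak ran from 120074981 to 120075577 and was 597 bp wide, with its midpoint 9.72 kb before the window centre. Its second peak ran from 120123697 to 120123900, was 204 bp wide and lay 38.8 kb beyond the centre. The midpoints were 48.5 kb apart, so that these peaks form no close group. The next peak beyond the window, from 120169428 to 120169578, was 151 bp wide and lay 29.5 kb past the window edge. It was 45.7 kb from the second peak, which thus had neighbours at similar distances on either side. On the other side no peak was listed for 306 kb before the wide one, up to a peak of 210 bp from 119769044 to 119769253. The wide peak was the only member at Sp8 within the central 55 kb of its window, while all 3 Sp5 peaks were within the central 55 kb of theirs.

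The long stretches beside the Sp5 group were free of listed peaks on both sides. The nearest peak at lower coordinates ran from 70059837 to 70060075, was 239 bp wide and had its midpoint 250 kb from that of the first Sp5 peak. The nearest at higher coordinates ran from 70848261 to 70848974, was 714 bp wide and lay 535 kb from the third. Of the 724 distances between neighbouring midpoints on chromosome 2, 26.9% were as long as the former and 11.3% as long as the latter. A stretch without peaks is one where nothing passed the authors' threshold, and is no measure of zero binding.

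**Figure D2:**
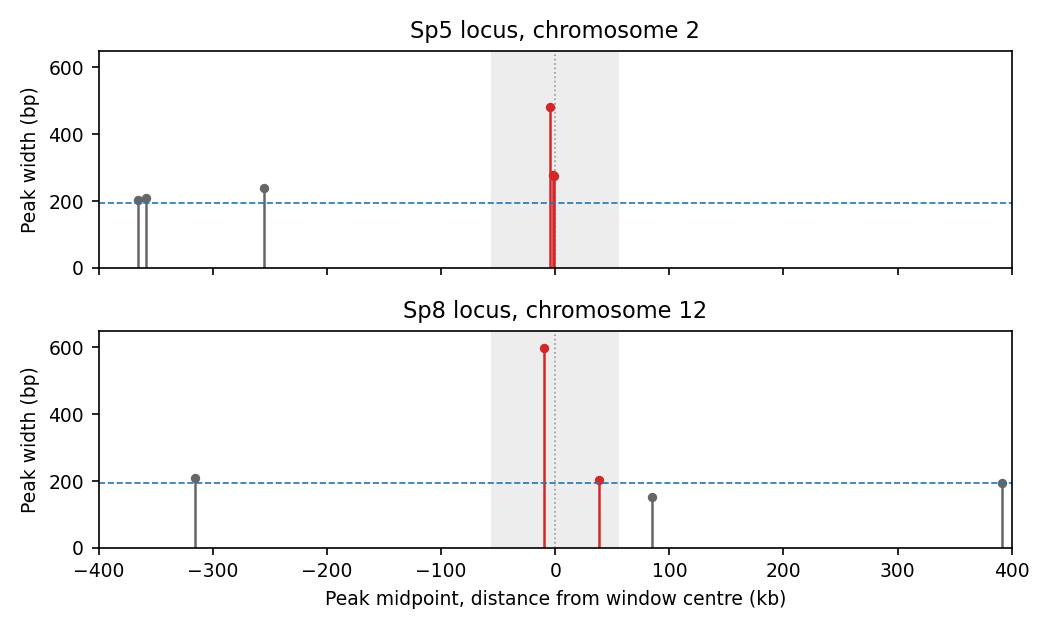
Each line is a called peak, placed by the distance of its midpoint from the window centre in kb and as tall as its width in bp; members are red, other peaks grey, the 110 kb windows shaded, and the dashed line is the median width of the whole list, 195 bp. The Sp5 peaks stand together with no other peak for 250 kb before and 535 kb after them, while the Sp8 peaks are 48.5 kb apart with another, narrower peak 45.7 kb further on.

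Both loci held more peaks than most windows of their size. On chromosome 2, 1621 windows of 110 kb were laid end to end outward from the Sp5 window between the first and last peak of the chromosome. Of these, 47 held 3 or more midpoints (2.90%, 95% Wilson interval 2.19 to 3.83%). No midpoint fell in 1139 windows (70.3%), 1 midpoint in 326 and 2 in 109, and the fullest window held 7. Sp5 was thus in the upper tail of its chromosome but not at its end, as 19 windows held more than 3. On chromosome 12, 70 of 1060 windows held 2 or more midpoints, as the Sp8 window did (6.60%, interval 5.26 to 8.26%). There 802 windows (75.7%) held none and 188 held 1, and the fullest held 5. Windows next to each other are not independent, and most of them were not drawn around a gene as these were. Among windows with at least 1 peak, 9.75% on chromosome 2 held 3 or more and 27.1% on chromosome 12 held 2 or more. With windows of 55 kb about the same centres the loci moved in opposite directions, to 0.832% of windows for the 3 peaks at Sp5 and to 13.9% for the single peak left at Sp8.

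**Figure D3:**
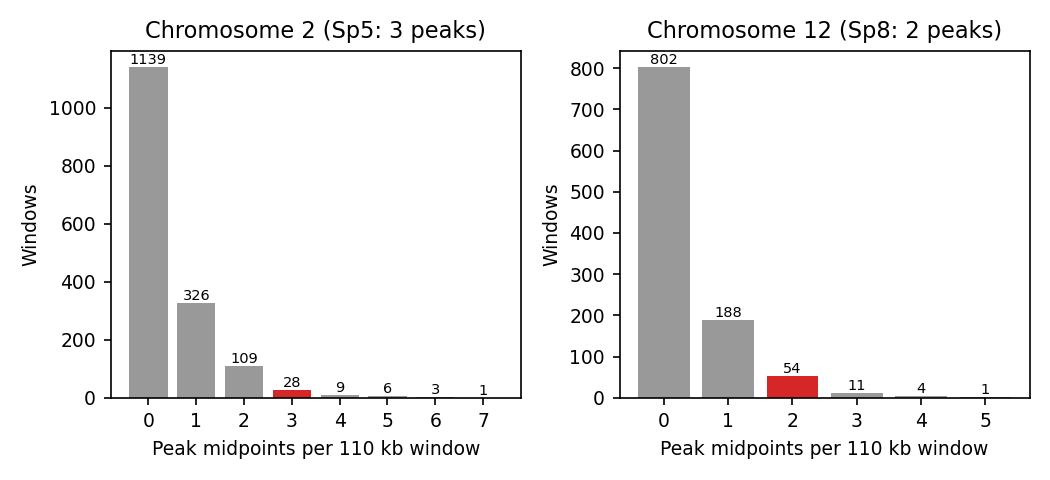
Bars give the number of 110 kb windows by the number of peak midpoints they hold, on chromosome 2 (left) and chromosome 12 (right), with the bar of windows holding as many as the Sp5 or Sp8 locus in red; the loci's own windows are left out. Windows without a peak are the most common on both, and 28 windows equalled Sp5 and 54 equalled Sp8.

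The counts themselves are small, and they carry a wide counting error. The 3 peaks at Sp5 have an exact 95% Poisson interval of 0.619 to 8.77 and the 2 at Sp8 one of 0.242 to 7.22, which cover counting of peaks only. Such intervals take peaks as independent of each other, and are too narrow where peaks lie in groups. At the mean density of its chromosome, a window would hold 0.447 peaks on chromosome 2 and 0.333 on chromosome 12. The ratio to that density was 6.72 for Sp5 (interval 1.39 to 19.6) and 6.00 for Sp8 (interval 0.727 to 21.7). The interval for Sp8 includes 1, and the intervals of both loci overlap almost entirely. That the interval for Sp5 lies above 1 is no test of an excess, given this assumption of independence. The difference between 3 and 2 peaks is therefore within counting error, and the loci cannot be ranked by number. No replicate error can be given for any of these values, since the list does not separate the libraries.

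The peaks at these loci were wider than most. All 3 at Sp5 and both at Sp8 exceeded the list median of 195 bp, as did 49.6% of all peaks. The 597 bp peak at Sp8 ranked 54 of 9428 by width and 3 of 354 on chromosome 12, and 0.573% of the list was as wide. The 483 bp peak at Sp5 ranked 16 of 725 on its chromosome, and 1.81% of the list was as wide. The close pair at Sp5 was less far out, with 18.3% and 18.6% of the list as wide as the 277 and 276 bp peaks. The second Sp8 peak, at 204 bp, was close to the median, and 45.0% of the list was as wide. Each locus therefore had 1 wide peak, 2.48 times the list median at Sp5 and 3.06 times at Sp8, beside narrower ones. In the whole list 13.8% of peaks exceeded 300 bp, which these 2 did.

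**Figure D4:**
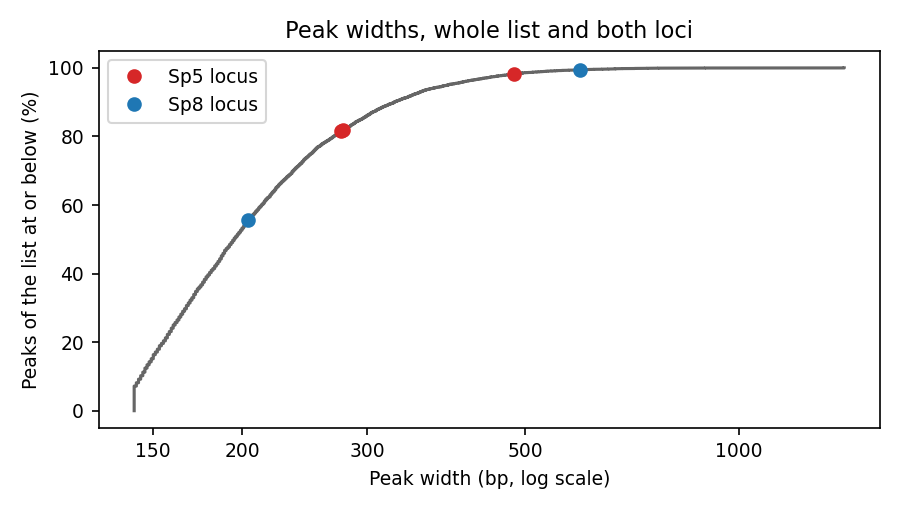
The grey line gives the percentage of all 9428 peaks at or below each width in bp (log scale), and dots mark the 3 Sp5 (red, with the 276 and 277 bp dots overlapping) and 2 Sp8 (blue) peaks on it. The widest member of each locus, 483 and 597 bp, lies at the far upper end, and the narrower Sp8 peak of 204 bp lies near the median.

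Width and number together set these windows further out than number alone. The Sp5 peaks covered 1036 bp in sum, and 11 of the 1621 chromosome 2 windows (0.679%) had peaks summing to as much. Among the 28 windows that also held exactly 3 peaks, 1 reached that sum, and 4 had all 3 peaks wider than the list median. The Sp8 peaks covered 801 bp, matched by 11 of 1060 windows on chromosome 12 (1.04%) and by 3 of the 54 that held exactly 2 peaks. Within these 54 windows the wider peak was in the median 1.34 times the narrower, against 2.93 times at Sp8, and 1 window reached that ratio. The Sp8 pair was thus uneven in width for its chromosome. Its 48.5 kb spacing was not unusual, since 17 of the 54 windows had a pair as far apart or further. Widths are those of the called intervals and do not give signal height or the extent of binding.

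The Sp5 peaks were also closer together than those of other windows with as many. In the 28 chromosome 2 windows that held exactly 3 peaks, the midpoints spanned 4.53 to 102 kb with a median of 36.1 kb, and none spanned as little as the 3.89 kb at Sp5. Runs of 3 neighbouring peaks without regard to windows gave the same picture. Of 723 such runs on chromosome 2, 2 spanned no more than the Sp5 run, itself included, and the median span was 281 kb. The Sp5 run was the second shortest of the chromosome. In the whole list 75 of 9388 runs (0.799%) were as short, Sp5 included, and these runs hold 207 peaks.

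Among the 75 short runs, that of Sp5 was also isolated and made of wide peaks. In 8 of the 75 the next peak was at least 100 kb away on both sides, in 16 all 3 peaks were wider than the list median, and in 2 both held, 1 of which was Sp5. In 2 of the 75, again with Sp5 as 1 of them, the narrowest peak was at least 276 bp wide. These properties, like the summed widths and width ratios above, were chosen after the values at the loci were seen. The counts place the Sp5 group among other short runs as a description and do not test it. At Sp8 no run of this kind occurred. Of the 353 distances between neighbours on chromosome 12, whose median was 166 kb, 24.1% were as short as the 48.5 kb between the Sp8 peaks.

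**Figure D5:**
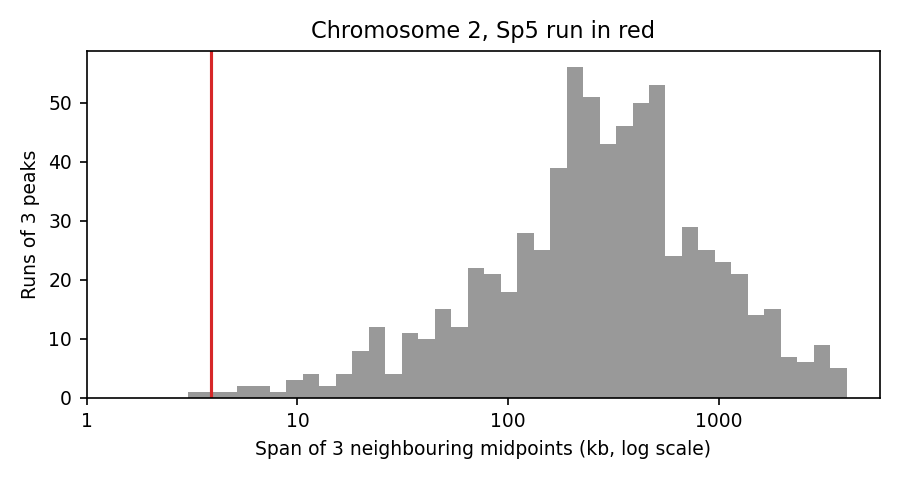
Bars give the number of runs of 3 neighbouring peaks on chromosome 2 by the span of their midpoints in kb (log scale), and the red line marks the Sp5 run at 3.89 kb. The Sp5 run lies at the far left of the distribution, whose median is 281 kb, with 1 run shorter.

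The position of the peaks relative to the genes could be given only through the windows. No mm9 annotation was used here, so that upstream, intronic and downstream peaks were not told apart and no distance to a start site is given. In the RefSeq gene table of GRCm38.p6, used for gene order only, Sp5 (gene ID 64406) follows the pseudogene Rpl9-ps7 and, before that, Myo3b, which encodes an unconventional myosin. After Sp5 come the long non-coding RNA gene Gad1os and then Erich2, a protein-coding gene. Sp8 (gene ID 320145) follows the pseudogenes Gm29689 and Gm6171 and is itself followed by Abcb5, which encodes a transporter of the ABC family, and the pseudogene Gm18921. No entry of the table overlaps Sp5 or Sp8. Any of the peaks could be nearer to one of these neighbours than to Sp5 or Sp8 in mm9, and a peak in the window is not thereby assigned to the gene. Other SP genes on the same chromosomes are Sp3 and Sp9 on chromosome 2 and Sp4 on chromosome 12, and their peaks were not examined. Both Sp8 locus peaks, and 4 peaks of chromosome 12 in all, lay beyond the last gene of chromosome 12 in the GRCm38.p6 table, by 456 kb for the last of them, so that the Sp8 window could not have been drawn around Sp8 in coordinates of that build. A published account of binding at these loci was not used here.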

How the data were processed

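Flag-Sp5 ChIP and input libraries, 2 of each, lie behind 1 peak list. The authors deposited it as 3 columns that place each interval in bp by chromosome, start and end, with no other values. The submitters' processing notes name mm9 as the build, and Bowtie, Picard, MACS2 and HOMER as tools. Tool versions, the peak threshold and how libraries were merged for peak calling were not given in the sources used here. Since neither read counts nor values by library are listed, library depth is unknown and no value has a replicate error or a test. Separate cultures for the libraries of a group are not stated in the labels.

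Starts were converted to 1-based positions. A peak belonged to a window if its midpoint did. Windows of 110 kb were tiled from each locus window between the first and last peak of the chromosome, and those overlapping the locus window were left out. Intervals are exact Poisson and Wilson intervals at 95%. Motifs were counted in the 250 bases before each start of the RefSeq promoter table (GRCm38.p6), without the 50 bases after it, and were chosen with the Sp5 and Sp8 sequences seen. The window counting was checked on simulated lists. Every peak in either window was named, with the nearest peak outside on each side; neighbouring genes were the nearest table entries. The members, windows and lists were chosen with earlier results of these data known. The planned listing of peaks by gene part and at other SP/KLF and Wnt target genes was not run, as it needs an mm9 annotation. Alternatives were merging peaks, keeping wide peaks, other window sizes, tilings and backgrounds. Python 3.11.15, numpy 2.4.6, pandas 2.3.3, scipy 1.17.1 and matplotlib 3.10.9 were used.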

Additional observations from a re-analysis of the deposited data

How the results depend on the processing

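Of 30 alternatives tried over both loci, 20 gave a value within set limits of the one reported and 10 did not. The limits were 1.5 times for a count, the 95% interval for a share and 1 SD of the peak widths for a median width, which is a loose limit at Sp8 (278 bp). The Sp5 count stayed at 3 under all 5 alternatives for it. The gaps, widths and positions given above already fixed this, so these 5 of the 20 add no separate sign of stability. They also fixed the Sp5 median width under both of its alternatives and the Sp8 median width under merging. The Sp8 count was likewise fixed under merging, under the width filter, and when any overlap with the window sufficed. Most alternatives that could move a value were those for the shares. The Sp8 count was 1 in a window of 55 kb and 3 in one of 220 kb. The share of chromosome 2 windows with as many peaks as Sp5, 2.90% as reported, was 9.75% among windows with at least 1 peak, 0.805% when only peaks wider than the list median were counted, 0.832% with windows of 55 kb and 9.77% with windows of 220 kb. For Sp8, 6.60% as reported, the share was 8.48% over the windows of all chromosomes, 27.1% among windows with at least 1 peak, 1.90% for peaks wider than the median, 13.9% with windows of 55 kb, where Sp8 has 1 peak, and 4.91% with windows of 220 kb. The median width at Sp8 was 204 bp over 3 peaks in the window of 220 kb and 400.5 bp over 2 peaks as reported, so that this change counts as within the limit although the value differs much. The width filter kept every peak of both loci but 49.6% of all peaks, so with it the shares could only fall. Window size and background thus set how far out either locus appears. Merging peaks less than 500 bp apart could change neither count, since no peaks of either window lie that close. No paired analysis was possible because peaks are not listed by library, which also prevents leaving out a replicate. With depth and threshold unknown, peaks missing from these windows cannot be read as missing binding.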
